A study of Mus musculus with 5 samples.

Results

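Of the 9 apoptosis inhibitors described here, 7 were measured by the arrays. They are the BCL2 relatives Bcl2a1d, Mcl1 and Bcl2l1, the inhibitor of apoptosis proteins (IAPs) Birc2, Birc3 and Xiap, and the caspase-8 regulator Cflar. The other two, Bcl2a1a and Bcl2a1b, had no probe under their RefSeq accessions. Members were taken as all probes listed under a RefSeq transcript of the gene, which gave 11 probes for 7 genes, out of 26582 probes for 20145 genes. Probes that carry a member's name under another kind of accession were not looked for. On all 5 arrays the scanner flagged all 11 as well above background.

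Female BALB/c mice were injected intraperitoneally, and 2 h later RNA was taken from their peritoneal lavage cells. The age of the mice, and whether RNA of several mice was pooled, are not given in the sources used here. The 5 groups received PBS as vehicle, AEPS at 50 µg, OVA at 25 µg, OVA at 25 µg together with AEPS at 50 µg, or OVA at 25 µg together with alum at 200 µg. AEPS is the root polysaccharide of Actinidia eriantha, OVA is the antigen ovalbumin, and alum is an aluminium salt used as an adjuvant. Each group had 1 array, so no difference has a replicate check, no test was run, and higher or lower describes these arrays only. The number of arrays limits the precision.

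Apoptosis from within the cell is decided at the outer membrane of mitochondria, where survival members of the BCL2 family such as BCL2A1 (A1), MCL1 and BCL-xL (the long product of Bcl2l1) bind and restrain BAX, BAK and the BH3-only proteins. Downstream, XIAP binds and inhibits caspases, while cIAP1 (Birc2) and cIAP2 (Birc3) are ubiquitin ligases that act at TNF receptors and keep signalling directed to NF-kB. c-FLIP, the product of Cflar, resembles caspase-8 and limits its activation at death receptors. Bcl2a1, Birc3 and Cflar are textbook NF-kB target genes, MCL1 is a short-lived protein that neutrophils need to survive, and A1 is expressed in neutrophils, mast cells and other blood cells.

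The mouse carries several near-identical copies of Bcl2a1, so a probe made for one copy may also bind RNA of another. The upstream sequences of the 3 member copies, from RefSeq on GRCm38.p6, show how close they are. Stretches before a RefSeq start of Birc2 and of Cflar are shown beside them because they held a match to the CRE or ISRE motif described below. A match was thus the condition for showing them and is no result about these genes. Each runs 5′ to 3′ on the gene's strand and holds the 250 bases before a RefSeq start, and for Cflar also the 20 bases after it. In Birc2 and Cflar that start lies inside the gene's span. Part of those stretches is therefore sequence of the gene and not upstream of it. Capitals mark a match to a searched motif, on either strand. In the Bcl2a1 copies it is TGANTCA, a loose form of the AP-1 motif that allows any middle base, which is A here. In Birc2 it is the cyclic AMP response element (CRE) TGACGTCA. In Cflar it is the interferon-stimulated response element (ISRE), searched as GAAA, any 2 bases and GAAA.
Bcl2a1a, chr9:88956670-88956919, plus strand: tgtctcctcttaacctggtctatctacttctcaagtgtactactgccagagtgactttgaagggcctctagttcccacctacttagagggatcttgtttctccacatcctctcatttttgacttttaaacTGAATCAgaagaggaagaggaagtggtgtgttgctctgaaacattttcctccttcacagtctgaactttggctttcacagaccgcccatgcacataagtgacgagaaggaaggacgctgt
Bcl2a1b, chr9:89199023-89199272, plus strand: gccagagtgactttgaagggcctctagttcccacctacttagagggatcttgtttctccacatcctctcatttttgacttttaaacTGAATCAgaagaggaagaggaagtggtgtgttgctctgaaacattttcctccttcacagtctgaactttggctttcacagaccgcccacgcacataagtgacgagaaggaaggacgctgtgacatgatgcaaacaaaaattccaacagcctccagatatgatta
Bcl2a1d, chr9:88731851-88732100, minus strand: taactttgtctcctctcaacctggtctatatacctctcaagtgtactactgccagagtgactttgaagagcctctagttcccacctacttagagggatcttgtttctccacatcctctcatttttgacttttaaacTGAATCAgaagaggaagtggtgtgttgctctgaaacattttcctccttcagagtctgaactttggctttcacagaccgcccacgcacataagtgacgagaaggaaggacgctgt
Birc2, chr9:7837058-7837307, minus strand: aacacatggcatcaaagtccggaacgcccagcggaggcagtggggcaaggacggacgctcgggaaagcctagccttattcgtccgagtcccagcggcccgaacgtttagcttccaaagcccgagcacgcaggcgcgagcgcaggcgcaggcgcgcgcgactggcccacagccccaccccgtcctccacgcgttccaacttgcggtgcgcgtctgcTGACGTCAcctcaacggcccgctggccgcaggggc
Cflar, chr1:58711241-58711510, plus strand: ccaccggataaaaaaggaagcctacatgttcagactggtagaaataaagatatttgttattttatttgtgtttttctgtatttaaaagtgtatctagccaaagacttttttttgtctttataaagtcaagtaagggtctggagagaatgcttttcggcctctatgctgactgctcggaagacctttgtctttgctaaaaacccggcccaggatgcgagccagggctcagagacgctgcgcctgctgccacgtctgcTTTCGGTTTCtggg

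Over the 300-base windows that RefSeq gives (250 bases before the start and 50 after it), the Bcl2a1a and Bcl2a1b promoters were identical at 254 of 256 aligned bases (99.2%). Bcl2a1d matched Bcl2a1a at 288 of 294 aligned bases (98.0%) and Bcl2a1b at 247 of 250 (98.8%), each with 6 gap positions. The AP-1 match began 120 bases before the start in Bcl2a1a, 164 before it in Bcl2a1b and 114 before it in Bcl2a1d. The 3 starts differ in where RefSeq places them within the shared stretch.

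Among 32851 mouse promoter windows of the same length, 7.81% held TGANTCA, the loose form of the AP-1 motif. The CRE was in 1.79%, the ISRE in 3.44% and the NF-kB consensus, the other motif searched, in 8.46%. The 9 members had 14 such windows, and no matches overlapped. The CRE lay in 1 of the 2 Birc2 windows, beginning 35 bases before that start, and the Cflar ISRE lay just after the start used. Both matches lie inside the RefSeq spans of their genes. The NF-kB consensus matched 1 of 3 Bcl2l1 windows and 1 of 3 Xiap windows. No motif matched in the Birc3 and Mcl1 windows, which says only that these letters are not there.

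On the chromosomes of GRCm38.p6, Bcl2a1d, Bcl2a1a and Bcl2a1b lie within chr9:88723288-89207838, and Birc2 and Birc3 are neighbours within chr9:7818226-7873205. Cflar is at chr1:58711311-58758884, Bcl2l1 at chr2:152758732-152833803, Mcl1 at chr3:95656944-95663179 and Xiap at chrX:42059613-42109664. No genome build is named in the array files, so these are places of genes and not of probes.

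Levels below are log2 processed signal minus the 75th percentile of that array, and belong to 1 probe each. Levels of different probes are not comparable, since probes differ in binding. A difference between arrays is a difference of these log2 levels. The scanner software gives an error for each signal, and from it the technical SE of a difference was 0.20 to 0.21 for every member probe, without the variation among mice or arrays. The technical interval named below is the 95% interval from this SE alone. A gene was called higher or lower at 2-fold or more, which is a log2 difference of 1.

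**Figure D1:**
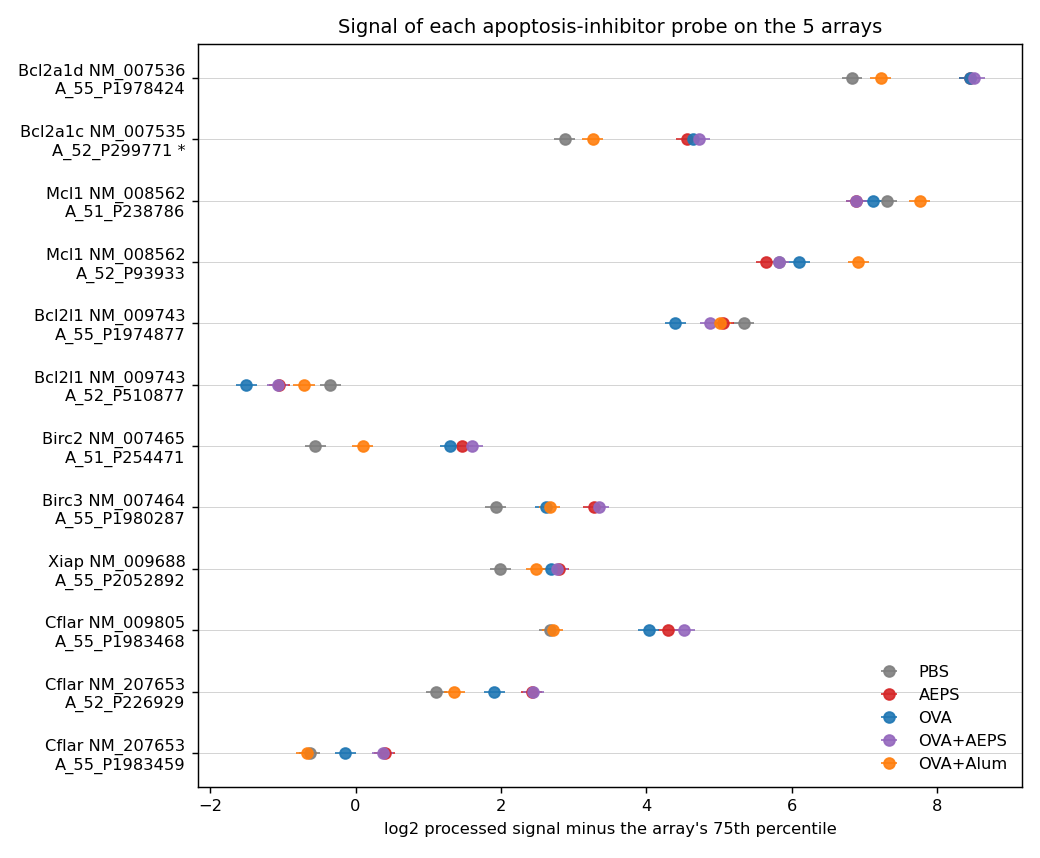
Log2 processed signal minus the array's 75th percentile (x axis) of the 11 inhibitor probes and of Bcl2a1c (asterisk, no member), 1 point per array with bars of 1 technical SE. For Bcl2a1d, Birc2 and the brightest Cflar probe the PBS and OVA+Alum points lie at least 1.20 below the other 3 points.

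Bcl2a1d encodes a copy of A1, a survival protein of the BCL2 family. Its probe (A_55_P1978424, NM_007536) stood at 6.83 on the PBS array, 8.45 on AEPS, 8.45 on OVA, 8.51 on OVA+AEPS and 7.22 on OVA+Alum. The AEPS, OVA and OVA+AEPS arrays were high and within 0.07 of each other, and the PBS and OVA+Alum arrays were low. Against PBS the signal was 3.07-fold on AEPS (log2 difference 1.62), 3.07-fold on OVA (1.62), 3.22-fold on OVA+AEPS (1.69) and 1.31-fold on OVA+Alum (0.39). The step between the OVA+Alum array and the lowest of the 3 high arrays, 1.22, was the one neighbouring gap past the technical interval.

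The related copy Bcl2a1c, which is no member, had a probe of its own (A_52_P299771, NM_007535) with levels of 2.88, 4.56, 4.64, 4.73 and 3.26 on PBS, AEPS, OVA, OVA+AEPS and OVA+Alum. Its differences from PBS were 1.68, 1.76, 1.85 and 0.39 on AEPS, OVA, OVA+AEPS and OVA+Alum. Centred on its own mean, its profile lay 0.071 (root mean square, log2) from that of Bcl2a1d, the fourth smallest distance among 13670 genes. Cross-hybridization between copies was not tested, and the Bcl2a1d signal may hold RNA of Bcl2a1a and Bcl2a1b.

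Mcl1 encodes the short-lived survival protein MCL1 and had a pair of probes for NM_008562. The brighter one (A_51_P238786) read 7.31 on PBS, 6.89 on AEPS, 7.12 on OVA, 6.89 on OVA+AEPS and 7.76 on OVA+Alum. The dimmer one (A_52_P93933) read 5.82, 5.65, 6.10, 5.82 and 6.92 on the same arrays. On both probes the OVA+Alum array was the highest, by 0.46 and 0.81 over the next array, each past the technical interval. OVA+Alum against PBS gave a log2 difference of 0.46 on the brighter probe, under 2-fold, and of 1.09 (2.13-fold) on the dimmer one.

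Without alum, Mcl1 stayed within 2-fold of PBS on both probes. On the brighter probe the log2 differences from PBS were -0.42 on AEPS, -0.19 on OVA and -0.42 on OVA+AEPS, and each changed sign when arrays were scaled by their spike-in RNAs, to 0.24, 0.10 and 0.03. OVA+AEPS lay below OVA+Alum by a log2 difference of -0.88 on the brighter probe and -1.09 on the dimmer one. Mcl1 was the member with its highest signal on the alum array.

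Bcl2l1 encodes BCL-xL and a shorter splice product, and the probes do not separate them by name, both being listed under NM_009743. The brighter probe (A_55_P1974877) read 5.34 on PBS, 5.06 on AEPS, 4.40 on OVA, 4.88 on OVA+AEPS and 5.02 on OVA+Alum. The dimmer probe (A_52_P510877) read -0.35, -1.05, -1.5, -1.07 and -0.71 on the same arrays. On both probes PBS was the highest array and OVA the lowest, and the step from OVA+AEPS down to OVA (0.48 and 0.43) was the one neighbouring gap past the technical interval. OVA against PBS gave log2 differences of -0.94 on the brighter probe and -1.16 on the dimmer one, which pass 2-fold on the dimmer probe alone. The AEPS difference from PBS on the brighter probe, -0.28, turned to 0.38 with spike-in scaling. With that scaling its differences from PBS were -0.01 on OVA+AEPS, -0.05 on OVA+Alum and -0.64 on OVA.

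**Figure D2:**
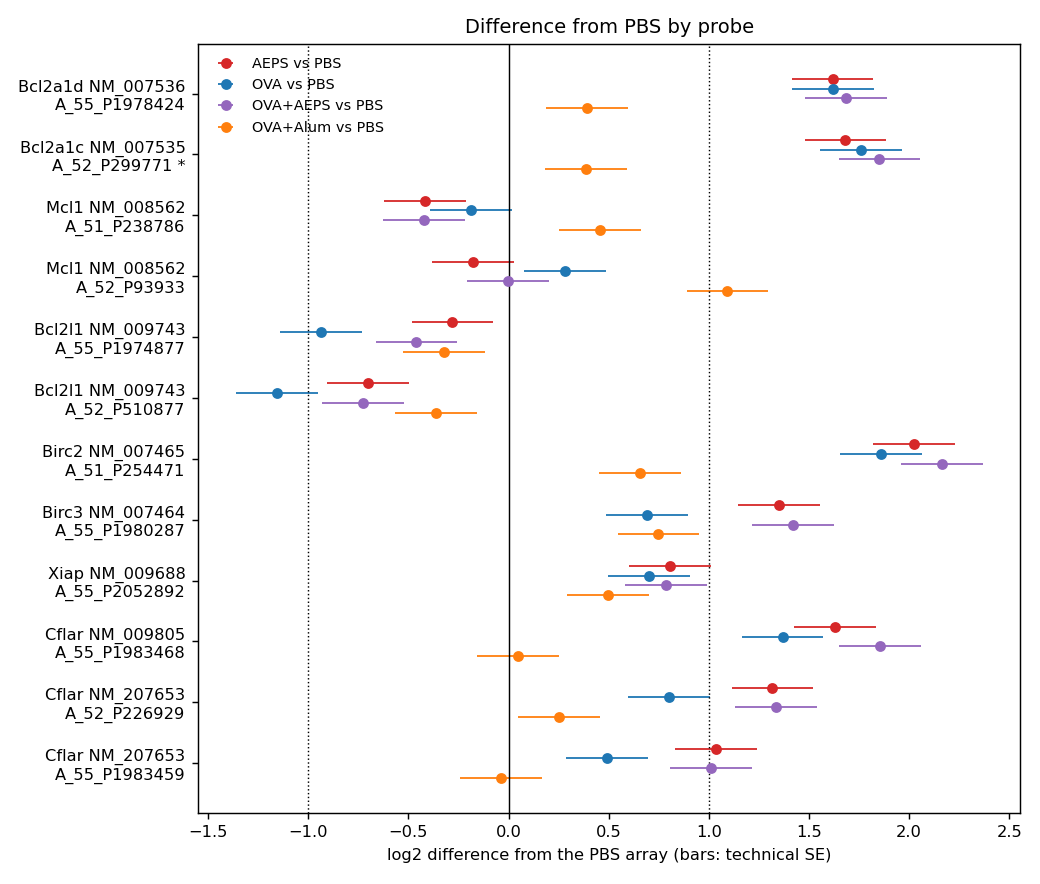
Log2 difference of each probe from the PBS array (x axis) for the 4 other arrays, with bars of 1 technical SE, dotted lines at 2-fold and an asterisk for Bcl2a1c. The Bcl2a1d, Birc2, Birc3 and Cflar probes reach 1.01 or more on both AEPS arrays. Both Bcl2l1 probes lie below 0 on all 4 arrays. With spike-in scaling the brighter one is at 0.38 on AEPS, -0.01 on OVA+AEPS, -0.05 on OVA+Alum and -0.64 on OVA.

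Birc2 encodes cIAP1. Its probe (A_51_P254471, NM_007465) read -0.56 on PBS, 1.47 on AEPS, 1.30 on OVA, 1.61 on OVA+AEPS and 0.10 on OVA+Alum. AEPS, OVA and OVA+AEPS were high with no neighbouring gap past the technical interval, OVA+Alum was lower, and PBS was lowest by a further 0.66. Against PBS the signal was 4.07-fold on AEPS (log2 difference 2.03), 3.63-fold on OVA (1.86), 4.48-fold on OVA+AEPS (2.16) and 1.58-fold on OVA+Alum (0.66). These were the largest differences of any member on the 3 arrays without alum.

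Birc3 encodes cIAP2 and lies next to Birc2 on the chromosome, but its order of arrays was another. Its probe (A_55_P1980287, NM_007464) read 1.93 on PBS, 3.28 on AEPS, 2.62 on OVA, 3.35 on OVA+AEPS and 2.67 on OVA+Alum. The AEPS arrays were highest, OVA and OVA+Alum lay together 0.06 apart in the middle, and PBS was lowest, with both steps past the technical interval. Its log2 differences from PBS were 1.35 on AEPS (2.55-fold), 0.69 on OVA, 1.42 on OVA+AEPS (2.68-fold) and 0.75 on OVA+Alum. Among the measured members Birc3 came nearest to separating the AEPS arrays from the rest, the lower of them lying 0.60 above the highest other array.

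Xiap encodes the IAP that inhibits caspases directly. Its probe (A_55_P2052892, NM_009688) read 1.99 on PBS, 2.79 on AEPS, 2.69 on OVA, 2.77 on OVA+AEPS and 2.49 on OVA+Alum. PBS was the lowest array by 0.50, and the other 4 had no neighbouring gap past the technical interval. None of its differences from PBS (0.81, 0.70, 0.79 and 0.50) reached 2-fold, although with spike-in scaling those of AEPS (1.46) and OVA+AEPS (1.24) did.

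Cflar encodes c-FLIP and had 3 probes, 1 for NM_009805 and a pair for NM_207653. The NM_009805 probe (A_55_P1983468), the brightest, read 2.67 on PBS, 4.30 on AEPS, 4.04 on OVA, 4.52 on OVA+AEPS and 2.71 on OVA+Alum. Its PBS and OVA+Alum levels were 0.05 apart, and the other 3 arrays stood at least 1.32 above them. Against PBS this was 3.10-fold on AEPS (log2 difference 1.63), 2.58-fold on OVA (1.37) and 3.61-fold on OVA+AEPS (1.85).

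The NM_207653 probes of Cflar put OVA in the middle instead. A_52_P226929 read 1.11, 2.43, 1.91, 2.44 and 1.36 on PBS, AEPS, OVA, OVA+AEPS and OVA+Alum, and A_55_P1983459 read -0.63, 0.40, -0.14, 0.38 and -0.67. On both, the AEPS arrays were about 0.52 above OVA, and OVA was 0.55 and 0.49 above the next array, all past the technical interval. The OVA difference from PBS was 0.80 and 0.49 on these probes, under 2-fold. Their profiles lay 0.12 (root mean square, log2) from each other and 0.30 and 0.37 from the NM_009805 probe. The 3 probes had in common a signal at least 2-fold higher on both AEPS arrays than on PBS.

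For counts over genes, the brightest probe stood for each gene. AEPS against PBS had 4 of 7 measured inhibitors higher (Bcl2a1d, Birc2, Birc3 and Cflar) and 0 lower, where 8.7% of all 14935 genes tested were higher and 6.89% lower. The median log2 difference of the 7 was 1.35, beside -0.17 over all genes. Spike-in scaling moved that all-gene median to 0.49 and the shares of all genes to 22.0% higher and 2.03% lower. The log2 differences of the 4 called members moved with it, to 2.27 for Bcl2a1d, 2.68 for Birc2, 2.01 for Birc3 and 2.29 for Cflar, and Xiap passed 2-fold as a further member.

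OVA against PBS had 3 of 7 higher (Bcl2a1d, Birc2 and Cflar) and 0 lower, with 6.67% of all genes higher and 4.08% lower. The median of the 7 was 0.70, beside -0.14 over all genes. By the median over each gene's probes the count was 2 higher and 1 lower, as Cflar fell short of 2-fold (0.80) and Bcl2l1 passed it downwards (-1.05). OVA+AEPS against PBS had 4 of 7 higher, the 4 genes called on AEPS alone, and 0 lower, with 8.3% and 6.18% of all genes and medians of 1.42 and -0.15. OVA+Alum against PBS had 0 of 7 in either direction, with 6.45% of all genes higher and 5.15% lower, and medians of 0.46 and -0.06. With spike-in scaling the shares of all genes were 10.6% higher and 2.19% lower for OVA and 16.3% and 2.51% for OVA+AEPS. For OVA+Alum they were 10.3% and 2.96%. With that scaling Xiap joined the members higher on OVA+AEPS, and Birc3 (1.02) was called higher on OVA+Alum. These 4 comparisons share the PBS array.

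For the adjuvants added to OVA, OVA+AEPS against OVA had 0 of 7 past 2-fold, with 4.08% of all genes higher and 3.64% lower, and its largest difference was that of Birc3 (0.73). OVA+Alum against OVA had 3 of 7 lower, namely Bcl2a1d (-1.23), Birc2 (-1.20) and Cflar (-1.32), and 0 higher, with 5.45% of all genes lower and 4.14% higher. The Cflar difference was -0.55 by the median of its probes. Mcl1 (0.65) and Bcl2l1 (0.62) lay above OVA past the technical interval, under 2-fold.

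Between the adjuvants, OVA+AEPS against OVA+Alum had 3 of 7 higher, Bcl2a1d (1.29), Birc2 (1.51) and Cflar (1.81), and 0 lower, with 6.76% of all genes higher and 6.44% lower. AEPS against OVA had 0 of 7 past 2-fold, with 4.25% of all genes higher and 3.24% lower. Birc3 and Bcl2l1, both at 0.66 in that comparison, passed 2-fold with spike-in scaling, at 1.02 each. OVA+AEPS against AEPS had 0 of 7, with 2.06% of all genes higher and 1.88% lower, and no member differed by more than 0.22. With spike-in scaling the higher and lower shares of all genes were 5.42% and 2.72% for OVA+AEPS against OVA, 9.16% and 4.59% for OVA+AEPS against OVA+Alum, 8.0% and 2.03% for AEPS against OVA, and 1.70% and 2.55% for OVA+AEPS against AEPS.

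For 5 members the log2 difference that went with AEPS was larger in the absence of OVA. The difference of log2 differences, with OVA minus without, was -1.55 for Bcl2a1d, -1.72 for Birc2, -1.15 for Cflar, -0.62 for Birc3 and -0.72 for Xiap, each with a technical SE of 0.29. It was 0.18 for Mcl1 and 0.76 for Bcl2l1. Whether the AEPS response depends on OVA was not tested, since each of the 4 arrays stands alone.

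**Figure D3:**
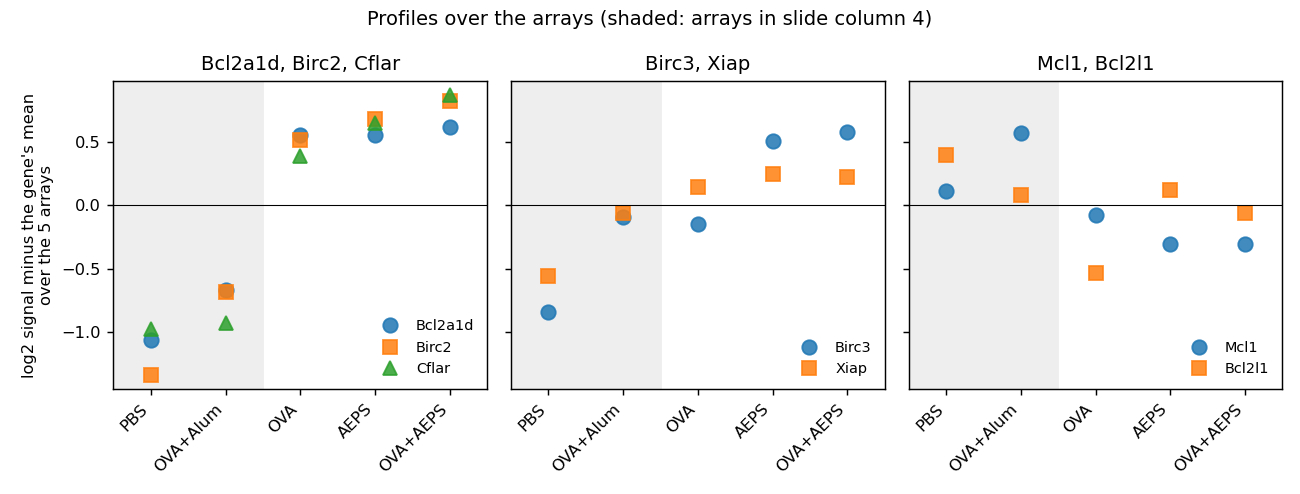
Log2 signal of each measured inhibitor (brightest probe) minus its mean over the 5 arrays (y axis) by array, with the arrays of slide column 4 shaded. In the left panel Bcl2a1d, Birc2 and Cflar are low on both shaded arrays and high on the other 3, in the middle panel Birc3 and Xiap are lowest on PBS, and in the right panel Mcl1 is highest on OVA+Alum.

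All arrays were on 1 slide, and the split seen for Bcl2a1d, Birc2 and Cflar ran along its columns. PBS and OVA+Alum were in column 4, and AEPS, OVA and OVA+AEPS in columns 1, 2 and 3. Both column 4 arrays were at least 2-fold below each of the other 3 for these 3 of 7 measured inhibitors, against 163 of 15567 genes (1.05%). The pattern was seen in these members' own values, so their count is a description and no support for a shared response. The reverse, column 4 at least 2-fold above, held for 0 of 7 and for 0.0964% of genes. PBS was also alone in row 1. Place on the slide and treatment cannot be told apart here. No member had both AEPS arrays at least 2-fold above the other 3, a pattern held by 1.09% of genes.

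The smallest gap between the columns was 1.22 for Bcl2a1d, 1.20 for Birc2 and 1.32 for the NM_009805 probe of Cflar. On the other Cflar probes it was 0.55 and 0.49, for Xiap 0.20 and for Birc3 -0.06, where OVA lay below OVA+Alum. The pattern therefore described 3 members by 1 probe each, and the further Cflar probes fell short of it.

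By distance between centred 5-array profiles (root mean square, log2), the members formed a close trio. Bcl2a1d lay 0.17 from Birc2 and 0.19 from Cflar, and Birc2 lay 0.21 from Cflar. Birc3 was nearest to Xiap (0.27) and Mcl1 to Bcl2l1 (0.39), while Birc2 and Mcl1 were 1.12 apart. As a scale, the median distance from Bcl2a1d over 13670 genes was 0.81. It was 0.61 from Birc3, 0.43 from Xiap, 0.37 from Mcl1 and 0.36 from Bcl2l1. Mcl1 and Bcl2l1 thus lay farther from each other than the median gene lay from either. These distances rest on 5 arrays and are a description.

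Among genes that are no members, the profile nearest to Bcl2a1d was that of Fcer1a (0.056), the alpha chain of the high-affinity IgE receptor, then Esco1 (0.057) and Zfp131 (0.065). For Birc2 it was Sdc4 (0.11), then the death receptor gene Fas (0.11) and Fcer1a (0.12). For Birc3 it was Irf9 (0.060), a subunit of the interferon-activated factor ISGF3, then Fam219a (0.075) and Rnf19b (0.075). For Cflar it was Npm1 (0.063), then Ranbp2 (0.083) and Gm5039 (0.084). Mcl1 was nearest to Inpp5d (0.015), which encodes the phosphatase SHIP1, Bcl2l1 to Nefh (0.032) and Xiap to Fam76b (0.026).

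The remaining genes of the apoptosis machinery were compared with PBS by list. Over all genes tested, 8.7% were higher and 6.89% lower on AEPS, and 6.67% and 4.08% on OVA. On OVA+AEPS these shares were 8.3% and 6.18%, and on OVA+Alum 6.45% and 5.15%. In a short list, 0 or 1 call cannot be told from such shares and is no result about the list. Of 7 other IAP family genes measured, Naip1 was lower on AEPS (-1.05) and OVA+Alum (-1.65), and 0 were higher on any array. The 3 BCL2 family effectors (Bax, Bak1 and Bok) had 0 of 3 past 2-fold in any of the 4 comparisons with PBS. Of 6 caspase and apoptosome genes, 1 was lower on AEPS, namely Casp9 (-1.17), the initiator caspase of the mitochondrial route. Spike-in scaling shifts all probes of an array alike, and on AEPS it moved the Xiap difference from 0.81 to 1.46. A shift of that size would bring the lower calls of Naip1 and Casp9 on AEPS under 2-fold. Of 10 genes for partners of the cIAPs, 1 was higher on AEPS and on OVA+AEPS, Traf1 (1.33 and 1.08), whose protein binds cIAPs at TNF receptor 2.

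Among 7 measured BH3-only genes, whose proteins oppose the survival members, Bcl2l11 (BIM) was higher than PBS on all 4 other arrays. Its log2 differences were 1.65 on AEPS, 1.6 on OVA, 1.54 on OVA+AEPS and 1.27 on OVA+Alum. The list's other calls were lower: Bmf and Bad on AEPS, with Bmf at -1.14, and Bad on OVA+AEPS (-1.09). Hrk was not well above background. Of 4 IAP antagonist genes, Xaf1, whose protein binds XIAP, was higher by 3.12 on AEPS and 2.96 on OVA+AEPS, and by 0.94 on OVA and 0.30 on OVA+Alum. Septin4 was lower on AEPS (-1.21) and OVA+AEPS (-1.20). Xaf1 was thus high on both AEPS arrays. Spike-in scaling moved the Xiap difference from 0.81 to 1.46 on AEPS and from 0.79 to 1.24 on OVA+AEPS. Shifts of that size would bring the lower calls of Bmf, Bad and Septin4 under 2-fold.

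The list of death receptors, their ligands and their complexes included some genes that differed as much as the inhibitors. Of 11 genes measured in it, 2 were higher on AEPS, 2 on OVA+AEPS and 1 on OVA. On OVA+Alum 1 was higher and 1 lower. The shares of all genes to read these counts against are given above. Fas, which c-FLIP acts downstream of, differed from PBS by 1.98 on AEPS, 1.54 on OVA, 2.04 on OVA+AEPS and 0.60 on OVA+Alum. Tnfsf10, the gene of the death ligand TRAIL, differed by 2.39, 0.96, 2.46 and 0.51 on those arrays. The TRAIL receptor gene Tnfrsf10b was higher on OVA+Alum (1.68), where Mlkl, the executor of necroptosis, was lower (-1.33). Of the 3 genes measured from the list of other survival BCL2 genes, 1, Bcl2a1c, passed 2-fold, on the 3 arrays without alum. Whether its probe also bound RNA of the member copies was not tested.

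NF-kB responsive genes outside the members gave 9 of 19 higher on AEPS, 3 of 19 on OVA, 13 of 19 on OVA+AEPS and 4 of 19 on OVA+Alum, and 0 lower on any. Of all genes, 8.7%, 6.67%, 8.3% and 6.45% were higher on those arrays. The median log2 differences of the NF-kB responsive genes were 0.99, 0.63, 1.08 and 0.35, beside 1.35, 0.70, 1.42 and 0.46 for the inhibitors, all against the same PBS array. Tnip3, an inhibitor of NF-kB signalling, differed from PBS by 2.98, 2.54, 3.02 and 1.29, and Tnfaip3 (A20) by 2.41, 1.32, 2.58 and 1.42. On OVA+AEPS the neutrophil chemokine genes Cxcl1 (1.86) and Cxcl2 (1.82) followed. As a control for the interferon response, Ifit1, Ifit2 and Ifit3 were 3 of 3 higher on AEPS, OVA and OVA+AEPS and 2 of 3 on OVA+Alum, with a median of 5.98 on AEPS and 2.33 on OVA.

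**Figure D4:**
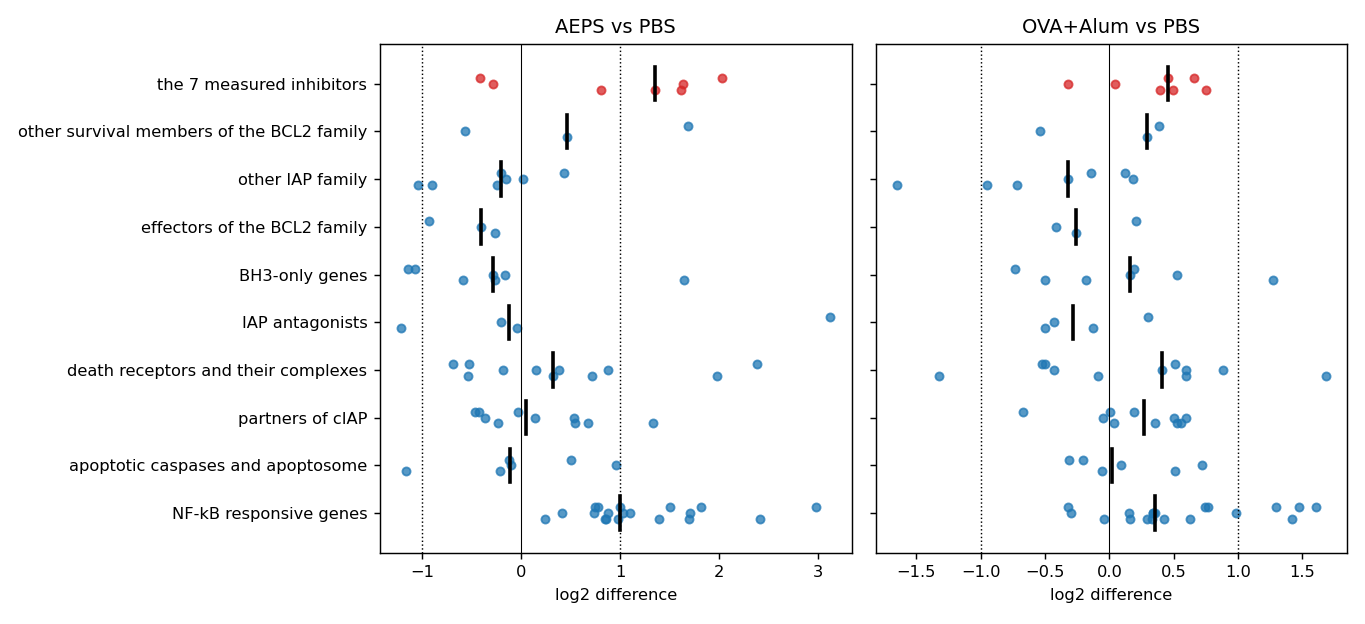
Log2 difference from PBS (x axis) of the 7 measured inhibitors (red) and of genes of 9 related lists (blue), 1 point per gene with the median as a black bar and dotted lines at 2-fold, for AEPS (left) and OVA+Alum (right). The inhibitors' median is 1.35 on AEPS and 0.46 on OVA+Alum, and that of the NF-kB responsive genes 0.99 and 0.35.

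The cells on the arrays also differed in their markers, and in bulk RNA fewer cells of a type and less RNA per cell cannot be told apart. Of 13 measured neutrophil markers, 8 were higher than PBS on AEPS, 10 on OVA, 8 on OVA+AEPS and 10 on OVA+Alum. Their summed signal, as multiples of the array's 75th percentile, was 1254 on PBS and 1972 to 2370 on the other 4 arrays, with 2319 on OVA+Alum. Single markers differed from this order. Cxcr2, the neutrophil chemokine receptor, read 2.07, 4.05, 4.42, 3.60 and 5.63 on PBS, AEPS, OVA, OVA+AEPS and OVA+Alum, and S100a8 read 8.40, 9.58, 9.41, 9.42 and 9.46. The part of neutrophil RNA in the members' differences was not tested.

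Large peritoneal macrophage markers summed to 1700 on PBS, 1359 on AEPS, 1422 on OVA, 1554 on OVA+AEPS and 911 on OVA+Alum, with 6 of 11 lower than PBS on OVA+Alum. Mast cell markers were higher than PBS for 4 of 8 on each of AEPS, OVA and OVA+AEPS and for 1 of 8 on OVA+Alum. Their sums were 330.0, 614.8, 499.4, 534.3 and 534.3 on PBS, AEPS, OVA, OVA+AEPS and OVA+Alum. The mast cell protease gene Cpa3 read 2.97, 5.05, 5.17, 4.95 and 2.77 on those arrays, and Fcer1a read 0.22, 1.95, 1.85, 2.05 and 0.69. These and Mrgprb2, a mast cell receptor gene (-2.88, -1.42, -1.17, -1.44 and -3.06), were at least 2-fold lower on PBS and OVA+Alum than on each other array, like Bcl2a1d, and the other 5 markers were not. Hdc, the histamine-forming enzyme, read 6.40, 8.23, 7.61, 8.06 and 8.19, and Mcpt4, Tpsb2, Cma1 and Kit stayed within 0.36 of PBS on every array. The part of mast cell or macrophage RNA in the members' differences was not tested.

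For the other cell types, summed signals ranged from 1140 to 1488 for monocyte markers, from 464.1 to 742.4 for B cells and from 66.6 to 102.6 for T and NK cells. They ranged from 5.41 to 8.70 for eosinophils, whose defining gene Epx was not well above background on any array, from 2.17 to 6.16 for mesothelial cells and from 804.8 to 2067 for red cells and platelets. Of these, mesothelial markers had 4 of 5 higher on OVA+Alum than on PBS, the array where Mcl1 was highest, and their part in that was not tested. A sum is weighted to its brightest probes. The monocyte sum was highest on OVA+AEPS and came mainly from F10 and Plac8, which read 10.13 and 8.50 there. Ccr2 and Chil3 were instead lowest on OVA+AEPS (-0.14 and 1.11) and highest on OVA (1.57 and 1.88). Markers of myeloid cells and B cells were present on every array, as the label peritoneal lavage implies.

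**Figure D5:**
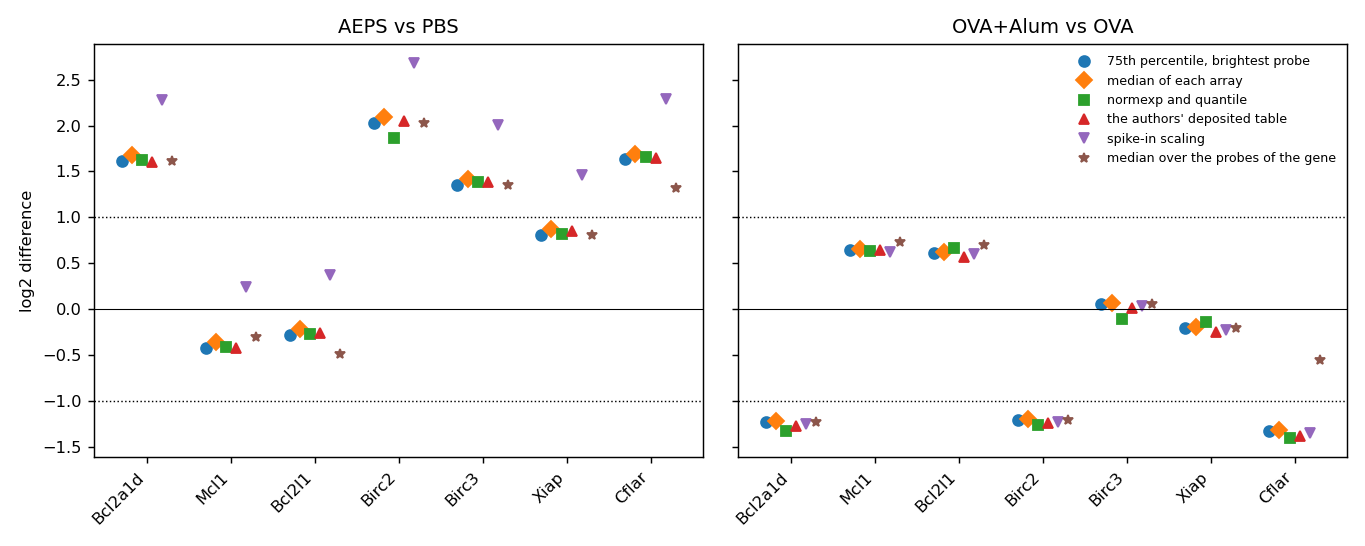
Log2 difference (y axis) of each measured inhibitor under 6 ways of scaling or summarising the arrays, for AEPS against PBS (left) and OVA+Alum against OVA (right), with dotted lines at 2-fold. In the left panel Mcl1 lies between -0.42 and 0.24, and in the right panel Cflar is -0.55 by the median of its probes.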

How the data were processed

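Single-colour Agilent arrays (Cy3, design 028005) were used, 1 per group. The scanner files hold linear intensity values that, per the file headers, the authors made with Feature Extraction 10.7.1.1, which subtracted background within each array. A deposited value table gives log2 values, with a median of 4.67 in every column. That scale was inferred from a Pearson correlation of 0.9998 or above, on each array, with log2 of the processed signal. Its normalization is not given in the sources used here. Flags in the scanner files are other deposited values of 0 or 1.

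Of 62976 spots per array, 3671 controls and 134 to 219 outlier spots were left out, and 0 were saturated. Probes above background made up 56.7% to 60.0% of 55681. The processed signal was taken as log2, minus each array's 75th percentile, and spots of a probe were averaged. Symbols came from RefSeq transcripts of GRCm38.p6, matched for 26582 probes, and 29099 had none. Genes were compared where at least 1 of the 2 arrays had the probe well above background, with a threshold of 2-fold. No test was run.

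Members and lists were chosen with earlier results of these data known. Named genes were all members, up to 4 genes per list at 2-fold against PBS, and for each member the nearest profiles. Alternatives were the array median, normexp (offset 50) with quantile scaling in limma 3.58.1 (R 4.3.3), the deposited table, scaling on 8 spike-in probes, other filters on dim probes, and the median over a gene's probes. Python 3.11.15, pandas 2.3.3 and numpy 2.4.6 were used. Probe and protein sequences were not used here.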

Additional observations from a re-analysis of the deposited data

Results flagged for a closer look

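The dimmer Bcl2l1 probe (A_52_P510877) had AEPS differences of opposite sign without and with OVA when arrays were scaled by the 75th percentile. Its log2 difference was -0.70 for AEPS against PBS and 0.43 for OVA+AEPS against OVA, with technical SEs of 0.21 each. The brighter Bcl2l1 probe gave -0.28 and 0.48. Each group is 1 array, so the difference between the AEPS responses was not tested. With spike-in scaling the dimmer probe gave -0.05 and 0.59 and the brighter one 0.38 and 0.64, so the opposite directions of the brighter probe were lost and the dimmer probe's AEPS difference from PBS was near 0. Groups of 1 array hold no samples among which one could stand apart.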

How the results depend on the processing

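No paired analysis was possible because each group has 1 array. Over 7 alternatives and 9 comparisons, 61 of 63 counts of called members stayed within 1.5 times, though the members behind a count could change. The median over probes changed 3 of 63 member calls: in OVA against PBS Cflar was lost (0.80) and Bcl2l1 gained as lower (-1.05), and in OVA+Alum against OVA Cflar was lost. Spike-in scaling changed 5 of 63, among them Xiap, gained on AEPS and OVA+AEPS against PBS, and the other 5 alternatives changed 0. Of these, the filters on dim probes could change no member value, since every member probe was well above background on every array. Likewise, the median over probes could change no value of the 4 measured genes that have 1 probe. Such fixed values are still included in the totals of 63 counts, calls or differences and of 441 differences given here. The exceptions among the counts came with spike-in scaling, which called 2 members in AEPS against OVA (Birc3 and Bcl2l1) and 1 in OVA+Alum against PBS (Birc3), where scaling by the 75th percentile called 0. That scaling also moved the all-gene median of AEPS against PBS from -0.17 to 0.49, of OVA+AEPS against PBS to 0.30 and of AEPS against OVA to 0.33. Over the 5 scalings the share of higher among all called genes ran from 55.8% to 91.6% in AEPS against PBS and from 62.0% to 82.9% in OVA against PBS. The cause was not tested. Of 63 member differences, 14 moved beyond the technical interval with spike-in scaling and 4, all of Cflar, with the median over probes, to 0.80 (OVA against PBS), 1.33 (OVA+AEPS against PBS), -0.55 (OVA+Alum against OVA) and 1.08 (OVA+AEPS against OVA+Alum). No called difference changed sign. Of 441 recomputed differences, 20 changed sign, 10 of them without spike-in scaling, none of those over 0.19 in size. With 1 array per group, leaving out a replicate gives no value, and the spread between mice is unknown. All member probes were well above background, so signal over background did not limit them.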
